A study of Homo sapiens with 6 samples.

Results

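Fc receptors bind the constant end of antibodies and tie an antibody's specificity to a cellular response. On myeloid cells the activating receptors signal through a tyrosine motif called ITAM, carried in their own tail or in the common gamma chain, which recruits the kinase SYK. The inhibitory receptor carries the opposing motif, ITIM, which recruits the phosphatase SHIP-1. The neonatal receptor FcRn protects IgG from degradation, and the low-affinity IgE receptor CD23 belongs to a separate family of lectins. Monocytes are known to raise the high-affinity IgG receptor CD64 on exposure to interferon, and macrophages to gain CD16 as they mature.

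The genes described here were fixed by name as 8 Fc receptor genes of myeloid cells, FCGR1A, FCGR2A, FCGR2B, FCGR3A, FCER1G, FCGRT, FCER2 and FCAR, out of 60612 gene identifiers in the deposited table. Each matched 1 identifier. RNA was sequenced from U937, an established human monocytic line that the labels call acute myeloid leukemia, of WT genotype. In the B2 group cells were exposed to 1 µM of a compound known here only by its code name, B2, and in the DMSO group to the vehicle, each for 36 h in RPMI-1640 without serum. There are 3 libraries per group, numbered 1 to 3 in both groups. The labels do not say whether a number marks a separate culture, so a p-value here measures the spread between libraries, which may be technical. They also do not say what same-numbered libraries share.

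Library totals lay between 61150740 and 78431054 counts, and levels are given as CPM, counts scaled to a common library size with a further scaling between libraries. Where 3 values stand for a treatment, they are replicates 1, 2 and 3 in that order. The libraries carried the marks of a myeloid line: ITGB2, SPI1, LYZ and CD33 were each above 80 CPM in all 6 libraries, and MPO, a granule enzyme of progenitors, was between 0.281 and 1.67 CPM. Both libraries numbered 3 stood apart from the other 4. The summed level of 15 myeloid markers was 9843 CPM for B2 and 10748 CPM for DMSO at number 3, against 3839 to 5310 CPM at numbers 1 and 2. The macrophage receptor CD163 was at 45.6 and 40.6 CPM there, against at most 1.17 CPM elsewhere. In bulk RNA, more cells of a kind and more RNA per cell cannot be told apart.

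None of the 8 genes separated B2 from DMSO, and all 8 separated the libraries numbered 3 from the rest. In every one of the 8 the B2 and DMSO libraries overlapped, where 3.56% of the 17224 tested genes had groups that did not. In every one of the 8 both libraries numbered 3 lay above the other 4, where 12.3% of tested genes did so. The contrast of number 3 was chosen with earlier results of these data known.

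**Figure D1:**
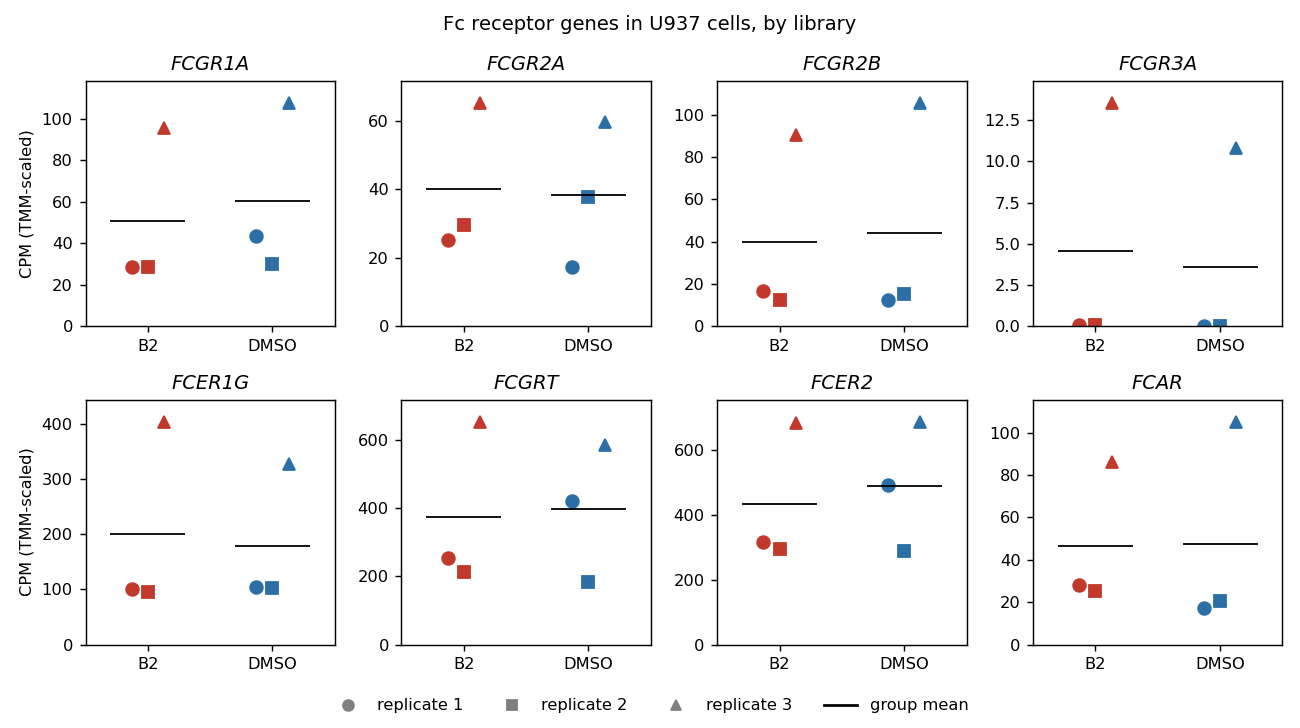
Level of each Fc receptor gene in CPM (linear axes from 0, one scale per gene) in the 3 B2 and 3 DMSO libraries; the marker shape gives the replicate number and the line the group mean. The triangles, replicate 3, are the highest points in both groups for every gene, and the B2 and DMSO points overlap.

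FCGR1A encodes CD64, the high-affinity IgG receptor (ENSG00000150337; chromosome 1, 149782671 to 149792518, forward strand, GRCh38, GENCODE 29). It read 28.3, 28.2 and 95.5 CPM under B2, against 43.3, 30.0 and 107 CPM under DMSO. The libraries numbered 3 were high in both groups, and the other 4 lay within 28.2 to 43.3 CPM. The mean was 50.7 ± 38.8 CPM with B2 and 60.2 ± 41.4 CPM with DMSO (SD, n = 3 each). Of the 8 genes FCGR1A alone was lower with B2 in all 3 same-numbered pairs, by 0.61, 0.09 and 0.17 on the log2 scale, where 9.12% of tested genes were lower in all 3 (log2 differences here use a pseudocount of 0.1 CPM).

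FCGR2A encodes CD32A, an IgG receptor with an ITAM in its own tail (ENSG00000143226; chromosome 1, 161505430 to 161524013, forward strand). It read 25.1, 29.4 and 65.1 CPM under B2, against 17.3, 37.7 and 59.6 CPM under DMSO. The libraries numbered 3 were highest in both groups, and DMSO replicate 2 came closest to them. The group means were 39.9 ± 21.9 CPM with B2 and 38.2 ± 21.2 CPM with DMSO (SD, n = 3 each).

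The stretch of DNA before the start of FCGR1A and of FCGR2A is shown because the pair share a run of bases there. Both are RefSeq sequences of GRCh38.p14, forward strand, 5′ to 3′, ending at the last base before the first GENCODE 29 start, with chr1:149782444-149782670 for FCGR1A and chr1:161505207-161505429 for FCGR2A. Capitals mark TTCNNNGAA, the core of the interferon-gamma-activated site, and TTCCTC, the reverse complement of GAGGAA, a core bound by the myeloid factor PU.1.
FCGR1A: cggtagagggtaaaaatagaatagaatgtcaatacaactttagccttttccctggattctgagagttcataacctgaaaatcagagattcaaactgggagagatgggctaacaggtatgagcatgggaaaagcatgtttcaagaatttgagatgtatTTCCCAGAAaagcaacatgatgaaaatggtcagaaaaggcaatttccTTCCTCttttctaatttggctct
FCGR2A: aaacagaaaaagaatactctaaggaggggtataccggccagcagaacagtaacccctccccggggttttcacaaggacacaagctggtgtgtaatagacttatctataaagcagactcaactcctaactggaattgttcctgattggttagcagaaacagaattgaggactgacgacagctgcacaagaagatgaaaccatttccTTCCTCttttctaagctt
The longest stretch common to both was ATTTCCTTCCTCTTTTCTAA, 20 bases, which 2 of the 35116 promoter windows in the RefSeq table held on either strand, those of FCGR1A and FCGR2A. Searched on both strands over the whole RefSeq windows, TTCNNNGAA was found in 7.66% of all windows and GAGGAA in 27.9%. TTCNNNGAA was in the FCGR1A window and in none of FCGR2A, FCER1G, FCGRT or the 5 windows of FCGR3A. One of the 2 windows of FCGR2B and one of the 2 of FCER2 held it. A match of letters is not a measured binding site, and FCAR had no window to search.

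FCGR2B encodes CD32B, the inhibitory IgG receptor (ENSG00000072694; chromosome 1, 161663147 to 161678654, forward strand). It read 16.4, 12.3 and 90.4 CPM under B2, against 12.2, 14.95 and 106 CPM under DMSO. The 4 libraries numbered 1 and 2 lay within 12.2 to 16.4 CPM, so the gap to number 3 was wide and alike in both groups. Group means were 39.7 ± 43.9 CPM with B2 and 44.2 ± 53.1 CPM with DMSO (SD, n = 3 each).

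The balance between the activating and the inhibitory CD32 gene turned over with the replicate number. Per kilobase of merged exon, the FCGR2A level divided by the FCGR2B level was 1.92, 2.99 and 0.901 under B2, against 1.76, 3.16 and 0.707 under DMSO. FCGR2A was thus the higher of the pair in 4 libraries and FCGR2B in both libraries numbered 3. The mean ratio was 1.94 ± 1.05 with B2 and 1.88 ± 1.23 with DMSO (SD, n = 3 each; two-sided exact permutation test, p = 0.8, with 0.1 the least this design can reach). This ratio carries no library scaling, but it does carry the exon lengths of the annotation and any reads exchanged between the CD32 genes.

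**Figure D2:**
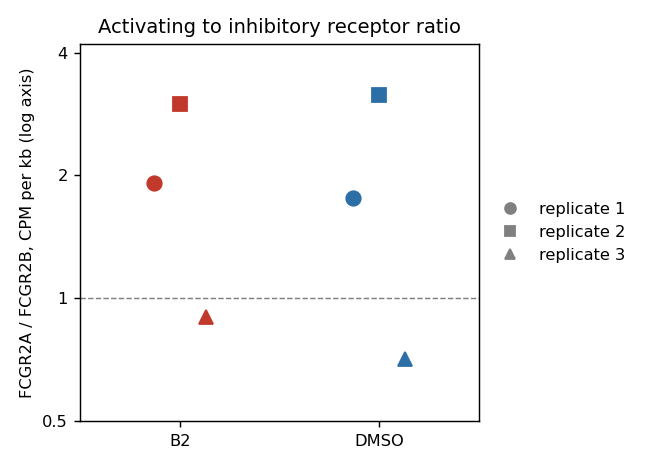
FCGR2A level divided by FCGR2B level, both in CPM per kilobase of merged exon (log axis), in the B2 and DMSO libraries, with the marker shape giving the replicate number. Both replicate 3 libraries lie below the dashed line at 1, at 0.901 for B2 and 0.707 for DMSO, and the other 4 lie between 1.76 and 3.16.

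FCGR3A encodes CD16A, the IgG receptor of natural killer cells and mature macrophages (ENSG00000203747; chromosome 1, 161541759 to 161550737, reverse strand). It had 4, 6 and 820 counts under B2, against 0, 0 and 838 counts under DMSO. The gene was therefore close to absent in the libraries numbered 1 and 2 at this depth and plainly detected in both numbered 3, with 13.5 CPM (B2) and 10.8 CPM (DMSO). With a floor of 3 counts per library, it was at least 201-fold higher in DMSO replicate 3 than in DMSO replicates 1 and 2. Such a floor covers counting error only. In B2 replicate 3 it was 165-fold higher than in B2 replicate 2, the higher of the other B2 libraries. All 3 same-numbered pairs were higher with B2, by 0.62, 0.87 and 0.32 on the log2 scale. The pairs numbered 1 and 2 rest on 4 and 6 counts against 0. Of the tested genes, which do not include FCGR3A, 15.8% differed in the same direction, up or down, in all 3 pairs. Those lower with B2 in all 3 were 9.12%. FCGR3A did not pass the filter on low counts, which asks for a minimum in 3 libraries, and has no value in the main fit.

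FCER1G encodes the common gamma chain, the ITAM subunit through which CD64, CD16A and CD89 signal (ENSG00000158869; chromosome 1, 161215234 to 161220699, forward strand). It read 102, 94.7 and 405 CPM under B2, against 104, 103 and 328 CPM under DMSO. Across numbers 1 and 2 it was the steadiest of the 8, with all 4 libraries between 94.7 and 104 CPM. Its level per kilobase relative to the summed level of its partners FCGR1A, FCGR3A and FCAR lay between 4.05 and 5.77 in the 6 libraries. Both ends were libraries numbered 3, with DMSO replicate 3 the lowest and B2 replicate 3 the highest. That ratio averaged 5.19 ± 0.498 with B2 and 4.92 ± 0.842 with DMSO (SD, n = 3 each; two-sided exact permutation p = 0.7).

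FCAR encodes CD89, the IgA receptor of myeloid cells, and lies apart from the IgG receptor genes (ENSG00000186431; chromosome 19, 54874248 to 54890472, forward strand). It read 28.1, 25.4 and 86.0 CPM under B2, against 17.3, 20.5 and 105 CPM under DMSO. The libraries numbered 1 and 2 lay within 17.3 to 28.1 CPM, and those numbered 3 were higher in both groups. With both libraries numbered 3 left out, the log2 fold change of B2 over DMSO was 0.50 (SE 0.39) and did not pass. The same-numbered differences, B2 minus DMSO on the log2 scale, were 0.69, 0.31 and -0.29 for numbers 1, 2 and 3.

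FCGRT encodes the heavy chain of FcRn, which pairs with beta-2 microglobulin (ENSG00000104870; chromosome 19, 49506816 to 49526333, forward strand). It read 253, 213 and 655 CPM under B2, against 421, 183 and 588 CPM under DMSO. DMSO replicate 1 lay between the libraries numbered 3 and the remaining ones. The gene for its partner, B2M, read 1290, 1365 and 4206 CPM under B2, against 1070, 1730 and 4348 CPM under DMSO. B2M per kilobase was 1.74 to 6.49 times FCGRT, lowest in DMSO replicate 1 and highest in DMSO replicate 2.

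FCER2 encodes CD23, the low-affinity IgE receptor known from B cells and activated monocytes (ENSG00000104921; chromosome 19, 7688758 to 7702146, reverse strand). It read 317, 296 and 685 CPM under B2, against 492, 289 and 688 CPM under DMSO. The libraries numbered 3 were nearly equal, and DMSO replicate 1 again stood between them and the rest. The B cell genes MS4A1, CR2, BLK and TCL1A had 0 counts in all 6 libraries, and the summed level of 10 B cell markers was 22.6 to 32.9 CPM in every library, although PAX5 read 9.16 to 18.5 CPM. FCRLA, on that list, was the 1 marker of the 6 tested that differed across numbers, where 2.68% of all tested genes did so. FCRLA passed the filter on low counts only with the libraries numbered 3, where it is high, so its call adds no support.

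Compared per kilobase of merged exon, the 8 genes spanned a wide range of levels. The median over 6 libraries was 165 CPM per kilobase for FCER2, 108 for FCER1G, 80.8 for FCGRT, 12.2 for FCGR1A, 11.3 for FCAR, 6.32 for FCGR2A, 2.36 for FCGR2B and 0.0230 for FCGR3A. Neighbours in this order overlapped in their ranges over libraries, from FCER2 (118 to 281) through FCER1G (98.3 to 420) and FCGRT (43.9 to 157), and again from FCGR1A (9.42 to 35.8) through FCAR (7.33 to 44.4), FCGR2A (3.25 to 12.2) and FCGR2B (1.84 to 15.9). FCAR at its highest (44.4, DMSO replicate 3) was just above FCGRT at its lowest (43.9, DMSO replicate 2), so these ranges met only across different libraries. FCGR3A (0 to 4.58) reached into the ranges of FCGR2B and FCGR2A only through the libraries numbered 3. It ranked last in every library. FCER2, FCER1G and FCGRT held ranks 1 to 3 in every library. Within each library of numbers 1 and 2 FCER2 ranked first and FCER1G second, and in both libraries numbered 3 FCER1G ranked first and FCER2 second. Merged exon length is larger than a typical transcript, above all for FCGR2B (6651 bases) and FCGR2A (5314 bases), so these levels are lower than per-transcript values would be.

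In the test of B2 against DMSO, 0 of the 7 tested genes passed, as was so for 0% of all 17224 tested genes (edgeR quasi-likelihood test, Benjamini-Hochberg adjustment over all tested genes, threshold 0.05). DESeq2 called 1 gene over the whole table, none of the 7. At an unadjusted p below 0.05 there were 0 of the 7 and 85 of all genes, which is 0.493%. The log2 fold change was -0.25 for FCGR1A (SE 0.62), 0.06 for FCGR2A (SE 0.52), -0.16 for FCGR2B (SE 0.98), 0.17 for FCER1G (SE 0.67), -0.09 for FCGRT (SE 0.54), -0.18 for FCER2 (SE 0.44) and -0.04 for FCAR (SE 0.76). Their median was -0.09, beside -0.08 over all tested genes. The 95% interval was narrowest for FCER2, from -1.18 to 0.82, and widest for FCGR2B, from -2.41 to 2.10, so in this fit, with treatment as the only term, a 2-fold decrease lies within each of the 7 intervals and a 2-fold increase within all but that of FCER2. With the replicate number as a block the intervals were narrower and none of the 7 held a 2-fold change, the lowest bound being -0.85 for FCGR1A and the highest 0.85 for FCAR, and again 0 of the 7 passed (edgeR adjusted p = 1 for each). The direction changed with the library left out. Such fits have no term for the number and hold the numbers unevenly between the groups. Their estimates therefore mix B2 with the difference between numbers. Without B2 replicate 3 all 7 estimates were negative, between -1.63 and -0.49, and without DMSO replicate 3 all 7 were positive, between 0.15 and 1.55. Without DMSO replicate 1 all 7 were negative, between -0.58 and -0.03, and without B2 replicate 2 all 7 were positive, between 0.04 and 0.52. With both libraries numbered 3 left out they lay between -0.38 and 0.50. FCGR3A, in the fit without the filter, had an estimate of 0.34 with an SE of 2.11 (edgeR adjusted p = 1.0).

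**Figure D3:**
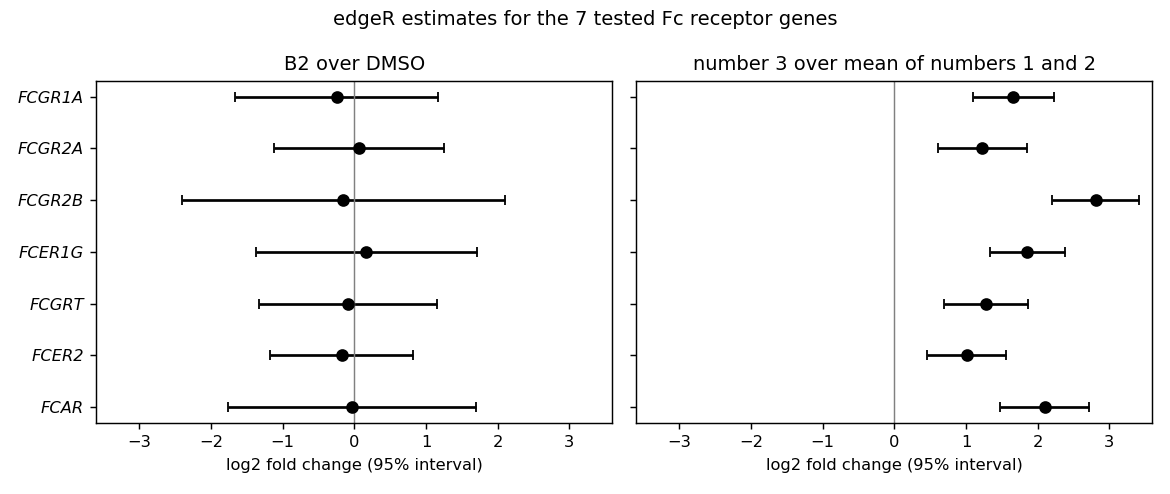
edgeR log2 fold changes with 95% intervals for the 7 tested Fc receptor genes, for B2 over DMSO (left) and for replicate number 3 over the mean of numbers 1 and 2 (right). On the left every interval spans 0, and on the right the estimates run from 1.01 for FCER2 to 2.81 for FCGR2B.

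Across replicate numbers, 5 of the 7 tested genes differed at an adjusted p below 0.05, and each of the 5 was highest in number 3 (edgeR F test over the 3 numbers, with treatment in the fit). Over all tested genes 2.68% differed between numbers and 2.14% differed and were highest in number 3. Here and below, an edgeR adjusted p beside a fold change of number 3 is from this F test over the 3 numbers. It is not a test of that fold change alone. The log2 fold change of number 3 over the mean of numbers 1 and 2 was 2.81 for FCGR2B (SE 0.28, adjusted p = 0.00029). It was 2.10 for FCAR (4.28-fold, SE 0.28, adjusted p = 0.0037) and 1.86 for FCER1G (3.62-fold, SE 0.24, adjusted p = 0.0028). FCGR1A lay at 1.66 (3.16-fold, SE 0.26, adjusted p = 0.010) and FCGRT at 1.27 (2.42-fold, SE 0.27, adjusted p = 0.042). FCGR2A, at 1.22 (SE 0.28, adjusted p = 0.067), and FCER2, at 1.01 (SE 0.25, adjusted p = 0.095), did not pass. The median of the 7 was 1.66, beside -0.05 over all tested genes, and the 7 lay at or above 92.4% to 98.6% of tested genes in this contrast. In the fit without the filter FCGR3A had an edgeR adjusted p of 1.03e-05. It had at most 6 counts in any library numbered 1 or 2, so that value rests on the libraries numbered 3 and adds no support.

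The calls across numbers depended on single libraries, as number 3 holds only 1 library per treatment. Of the 7 members tested in these fits, 2 passed without B2 replicate 3 and 1 without DMSO replicate 3. FCGR2B passed with each of the 6 libraries left out in turn (edgeR adjusted p at most 0.0084). Without B2 replicate 3 the adjusted p was 0.34 for FCGR1A, 0.21 for FCER1G and 0.50 for FCGRT, and without DMSO replicate 3 it was 0.25 for FCGR1A, 0.072 for FCER1G, 0.21 for FCGRT and 0.33 for FCAR. FCGRT was also lost without B2 replicate 2 (0.054) and without DMSO replicate 2 (0.22), with no filter on low counts (0.072) and under scaling by totals alone (0.058). FCGR2A passed without B2 replicate 1 (0.017), B2 replicate 2 (0.024) or DMSO replicate 2 (0.026), and FCER2 without B2 replicate 1 (0.0070) or DMSO replicate 1 (0.025). DESeq2 called all 7 (adjusted p = 0.00050 for FCGR2A and 0.0068 for FCER2). The estimates themselves stayed positive for all 7 genes, between 0.84 and 2.97, whichever library was left out.

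Between numbers 1 and 2 the members differed among themselves. Number 2 over number 1 was -0.75 for FCGRT, -0.45 for FCER2, -0.27 for FCGR1A and 0.68 for FCGR2A on the log2 scale, and between -0.07 and 0.03 for FCGR2B, FCER1G and FCAR. The longest transcript of FCGRT has 62.6% G and C and that of FCER2 59.7%, those of the other 6 lie between 45.8% and 50.5%, and the median tested gene has 49.7%. FCGR1A and FCGR2A, with 46.0% and 45.8%, went opposite ways. The part of GC content in these differences was not tested. Over 17015 tested genes with a transcript sequence, the log2 difference of replicate 2 minus replicate 1 had a Spearman rho with GC content of -0.43 in B2 and -0.57 in DMSO, values across genes, which are not independent replicates. For number 3 minus the mean of numbers 1 and 2 the rho was 0.05 in B2 and 0.08 in DMSO. With the GC trend removed, the log2 fold change of number 3 was 1.21 for FCGRT, 0.96 for FCER2 and 1.41 for FCGR2A (edgeR adjusted p = 0.0031 for FCGR2A, which then passed).

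The IgG receptor genes have near-identical copies, and their counts are uncertain for that reason. Of the 75-base windows in FCGR1A transcripts, 46.3% also occur in FCGR1BP or FCGR1CP. For FCGR2B 11.0% occur in FCGR2A or FCGR2C, for FCGR2A 8.85% occur in FCGR2B or FCGR2C, and for FCGR3A 16.8% occur in FCGR3B. The sources used here do not give how reads with several matches were counted. The exons of FCGR1A also overlap genes on the opposite strand over 738 bases and those of FCGR2B over 485 bases, and those of FCGR2A overlap a same-strand gene, AL590385.2, over 201 bases. The strand setting of the counting is not given.

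The copies were also highest in number 3. FCGR2C read 4.23, 3.78 and 23.6 CPM under B2, against 3.05, 4.11 and 26.4 CPM under DMSO. It was 6.60-fold higher in number 3 (edgeR adjusted p = 0.00042). It held 8.30% to 13.2% of the CD32 counts with B2 and 7.24% to 13.8% with DMSO. FCGR1BP and FCGR1CP together held 20.0% to 21.2% of the CD64 counts with B2 and 15.6% to 23.8% with DMSO. FCGR1BP was 3.34-fold and FCGR1CP 3.64-fold higher in number 3 (edgeR adjusted p = 0.013 and 0.0077). FCGR1BP was lost without B2 replicate 3 (0.10), DMSO replicate 1 (0.052) or DMSO replicate 3 (0.26) and under scaling by totals alone (0.077), and FCGR1CP without B2 replicate 3 (0.19) or DMSO replicate 3 (0.056). FCGR3B, the neutrophil CD16 gene, had 19 counts in B2 replicate 3, 6 in DMSO replicate 3 and 0 in the other 4.

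FCMR, the receptor for IgM, read 7.49, 7.61 and 47.9 CPM under B2, against 10.5, 9.15 and 43.1 CPM under DMSO, and was 5.30-fold higher in number 3 (edgeR adjusted p = 0.0012; 0.062 without B2 replicate 3). FCRLA, an intracellular Fc receptor-like protein known from B cells, had 14, 4 and 439 counts under B2, against 0, 22 and 526 under DMSO (edgeR adjusted p across numbers 0.0016). TRIM21, the cytosolic antibody receptor, read 49.6, 44.7 and 87.0 CPM under B2, against 65.5, 39.6 and 94.5 CPM under DMSO. Its log2 fold change of number 3 was 0.88 (SE 0.26), and the edgeR F test across numbers gave an adjusted p of 0.13. FCER1A, the alpha chain of the high-affinity IgE receptor, had 0 counts in all 6 libraries. Of the 10 tested genes in this list 5 differed across numbers, all highest in number 3, where 2.14% of all tested genes did so. These were FCGR1BP, FCGR1CP, FCGR2C, FCMR and FCRLA. Of 75-base windows, 32.2% in FCGR1BP and 54.8% in FCGR1CP also occur in FCGR1A, and 29.2% in FCGR2C occur in FCGR2A or FCGR2B. The calls of these copies are therefore not separate from those of the members. FCRLA passed the filter only with the libraries numbered 3, so its call adds no support. Between B2 and DMSO 0 of the 10 differed (median log2 fold change -0.10), where 0% of all tested genes did.

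Genes of the signalling machinery behind the receptors are also read against all tested genes, of which 2.68% differed across numbers. Of 29 proximal signalling genes 2 differed across numbers, both highest in number 3, with 16 positive and 13 negative estimates and a median of 0.09. TYROBP, the ITAM adaptor DAP12, was 7.41-fold higher in number 3 (SE 0.29 on the log2 scale, edgeR adjusted p = 0.00028), at 31.3, 25.0 and 258 CPM under B2, against 55.6, 22.1 and 212 CPM under DMSO. SYK itself, named after its values were seen, read 361, 347 and 271 CPM under B2, against 284, 314 and 332 CPM under DMSO (log2 fold change of number 3 -0.11, SE 0.26). Of 10 inhibitory signalling genes 0 differed across numbers (7 positive, 3 negative, median 0.24). Below an unadjusted edgeR p of 0.05 stood 4 of them, where 3760 of all 17224 tested genes did so. These were SIRPA, DOK2 and PAG1, each with its highest fitted level in number 3, and PTPN11, with its highest in number 2. PAG1 read 16.5, 19.0 and 30.9 CPM under B2, against 11.1, 38.9 and 27.6 CPM under DMSO, so DMSO replicate 2 was its highest library. The interval of number 3 over the mean of numbers 1 and 2 spanned 0 for PAG1 (-0.19 to 1.30) and PTPN11 (-1.48 to 0.26). Of these 4, DESeq2 called SIRPA (adjusted p = 0.011) and PTPN11 (0.019). INPP5D, which encodes SHIP-1 and was also chosen after its values were seen, had a log2 fold change of -0.05 (SE 0.25).

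**Figure D4:**
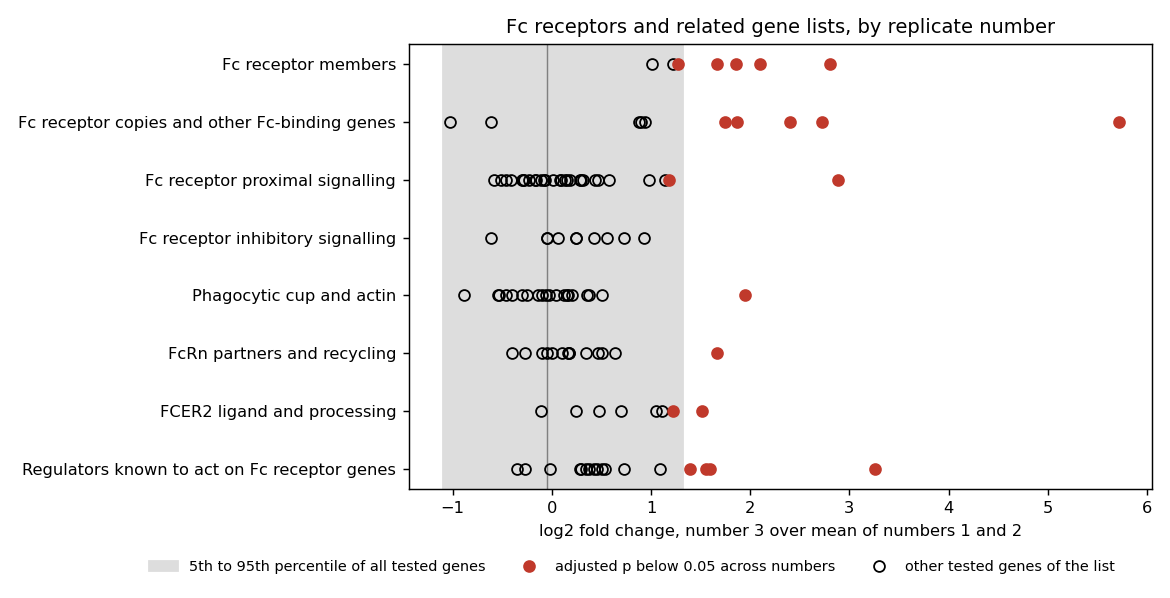
Log2 fold change of replicate number 3 over the mean of numbers 1 and 2 for each tested gene (circles, log2 axis) of the Fc receptors and 7 related lists; filled circles differed across numbers at an adjusted p below 0.05, and the grey band holds the 5th to 95th percentile of all tested genes. The vertical line is the median of all tested genes. The Fc receptors run from 1.01 to 2.81, with FCGR2A, FCER2 and FCGRT still inside the band, and most signalling and actin genes lie inside it.

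Genes of uptake, recycling and CD23 binding are read against the 2.68% of all tested genes that differed across numbers. Of 20 phagocytic cup and actin genes 1 differed across numbers. This was GSN, the actin-severing protein gelsolin, at 62.8, 51.7 and 221 CPM under B2, against 90.6, 43.4 and 244 CPM under DMSO (3.85-fold higher in number 3, edgeR adjusted p = 0.0027; lost without B2 replicate 3, at 0.067, or DMSO replicate 3, at 0.067). The list median was -0.04. Of 14 FcRn partner and recycling genes 1 differed, B2M, 3.16-fold higher in number 3 (edgeR adjusted p = 0.0060; lost without B2 replicate 3, at 0.095, or DMSO replicate 3, at 0.12), with a list median of 0.16. Of 8 tested genes for CD23 partners and processing 2 differed. ITGAX, the alpha chain of a leukocyte integrin that binds CD23, was 2.86-fold higher (edgeR adjusted p = 0.011) and its beta chain ITGB2 2.33-fold higher (0.040). ITGAX was lost without B2 replicate 3 (0.20) or DMSO replicate 3 (0.42). ITGB2 was lost without B2 replicate 2 (0.053), B2 replicate 3 (0.25), DMSO replicate 2 (0.26) or DMSO replicate 3 (0.42), with no filter on low counts (0.13) and with the GC trend removed (0.071). CR2, the complement receptor that also binds CD23, had 0 counts in all libraries.

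Among 17 regulators known to act on Fc receptor genes 4 differed across numbers, all highest in number 3, where 2.14% of all tested genes did so. IRF9, the DNA-binding subunit of the interferon-stimulated complex ISGF3, read 5.84, 6.63 and 51.2 CPM under B2, against 8.35, 6.50 and 82.0 CPM under DMSO (9.56-fold, edgeR adjusted p = 0.00012). IFNGR1, a chain of the interferon-gamma receptor, was 3.02-fold higher (0.016) and STAT2, another subunit of that complex, 2.63-fold (0.027). IFNGR1 was lost without B2 replicate 3 (0.32) or DMSO replicate 3 (0.36), and under scaling by totals alone (0.060). STAT2 was lost without B2 replicate 3 (0.23), DMSO replicate 2 (0.066) or DMSO replicate 3 (0.71), and under scaling by totals alone (0.076). SPI1, which encodes PU.1 and was named after its values were seen, read 240, 219 and 426 CPM under B2, against 388, 198 and 420 CPM under DMSO. Its log2 fold change of number 3 was 0.73 (SE 0.26), and the edgeR F test across numbers gave an adjusted p of 0.17. The list median was 0.45. Between B2 and DMSO 0 genes of these lists passed, and 0 had an unadjusted edgeR p below 0.05. The 2 genes with the smallest treatment p in each list had log2 fold changes between -0.56, for the phosphatase PTPN11, and 0.91, for albumin, ALB, the other FcRn ligand. CBL stood at 0.47 and LYN at 0.26, CD33 at -0.21, AMPH at 0.43 and ACTR2 at -0.44, RAB5A at -0.36, STAT6 at -0.15 and ITGAM at -0.18, and IFNGR1 at -0.48 and IFNAR2 at 0.20. With the replicate block CBL had 0.81, with an unadjusted edgeR p of 0.047 and an adjusted p of 1.

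Markers of other cells were set beside the receptors. Among natural killer and T cell markers KLRD1, CD3D, CD3E and CD3G had 0 counts in all 6 libraries, NCR1 and CD8A had at most 0.0902 CPM, and GNLY at most 0.396 CPM. NKG7 held most of the list's sum at 169 to 376 CPM, and CD2 was at 3.38 and 4.57 CPM in the libraries numbered 3, against at most 0.739 CPM elsewhere (edgeR adjusted p = 0.0027). Their summed level was 384 CPM (B2) and 336 CPM (DMSO) at number 3, against 177 to 344 CPM in the other 4. Granulocyte and mast cell markers summed to 590 and 574 CPM in the libraries numbered 3 and to 425 to 749 CPM in the others, with CEACAM8 at 7.30 and 7.37 CPM against at most 1.24 CPM (edgeR adjusted p = 0.00019). Epithelial markers summed to 45.7, 45.2 and 58.4 CPM under B2, against 4.69, 14.5 and 39.2 CPM under DMSO, so these sums did not overlap. All 9 had a positive estimate for B2 over DMSO, where 6535 of 17224 tested genes did. Their median log2 fold change was 1.28, beside -0.08 over all tested genes. Of the 9, 0 passed and 1 had an unadjusted edgeR p below 0.05, where 0.493% of all tested genes did. The part of any of these cells in the receptor values was not tested.

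Over the 6 libraries the members resembled each other to different degrees. The highest Pearson r of log2 CPM among the 7 tested genes was 0.990, between FCER2 and FCGRT, followed by 0.984 between FCGR2B and FCER1G. The lowest was 0.489, between FCGR2A and FCGRT. Outside the members, the gene most like FCGR1A was BATF2, an interferon-inducible transcription factor (r = 0.999), followed by LOXL3 and CCRL2. PARP9 was most like FCGR2A (0.999), SPOCD1 most like FCGR2B (0.998, with FCGR2C at 0.997), and S100A8 most like FCER1G (0.997). MARCHF2 and GRINA were among the 3 most like FCGRT (0.999 each). The gene most like FCER2 was BST2 (0.999, with the kinase SRC at 0.998), and that most like FCAR was TNFRSF21 (0.998, with IL1B at 0.995). With 6 points, of which those numbered 3 lie apart, and with shared depth and GC trends, such values describe these libraries alone.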

How the data were processed

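RNA sequencing of 6 U937 libraries was analysed from 1 table that the authors deposited, holding estimated counts per Ensembl gene (expected counts, not normalized). The values were whole numbers, so rounding changed nothing. The submitters' processing notes name HISAT2 2.0.4, an aligner. Not given in the sources used here are how counts were made, on which build and annotation, and whether strand was used. The value 4 occurred 6465 times against 3144 for 3 and 2022 for 5, so small counts are less exact than they look. Symbols came from a gene name table (60401 identifiers) and GENCODE 29 (187 more), positions and exon lengths from GENCODE 29.

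Genes were kept by filterByExpr (minimum count 10, minimum total 15). Counts were scaled with TMM factors and tested with edgeR 4.0.16 (glmQLFit, glmQLFTest) under R 4.3.3, with treatment as the only term, or with treatment and replicate number for the comparison across numbers. P-values were adjusted over all 17224 tested genes. SE were taken from the coefficient and its F statistic. Alternatives used DESeq2 1.42.0, limma 3.58.1, other scalings and filters, and left-out libraries. Of 8 members 7 passed the filter. The tests were checked on simulated counts.

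Named genes were the members, Fc-binding genes with a count, the 2 smallest treatment p and 4 smallest number p of each related list, and the 3 genes most like each member. The text prints part of them, and some are not reported here. The members and lists were chosen with earlier results of these data known. Deviations from group means correlated across genes at 0.21, 0.40 and 0.50 for same-numbered libraries 1, 2 and 3. Each exceeded 0.1, so same-numbered libraries were also compared as pairs, and the replicate block was run as an alternative. The main test of B2 against DMSO and the permutation tests did not use this pairing. The pairing rests on the data alone, as no label states it.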

Additional observations from a re-analysis of the deposited data

How the results depend on the processing

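Of the 7 tested members 0 differed between B2 and DMSO under every alternative run, including the replicate block, under which their estimates lay between -0.29 and 0.24. The block called 0 genes in all. Over all genes DESeq2 called 1, the GC-corrected fit with the replicate block, added after seeing the data, called 2, and leaving out 1 library called 0 to 1. Several directions changed. With both libraries numbered 3 left out, FCGR2A stood at -0.0085, FCGR2B at 0.078, FCER1G at -0.079 and FCAR at 0.50. FCAR was 0.0029 with library totals, 0.20 with limma-voom and 0.24 with the replicate block. With GC correction and block together, FCGR2A was -0.11, FCER1G -0.15 and FCAR 0.050. The fits with a single library left out have no term for the number and hold the numbers unevenly between the groups. With each library left out in turn the B2 estimate ranged from -1.09 to 0.47 for FCGR1A, -0.49 to 0.54 for FCGR2A, -1.63 to 1.55 for FCGR2B, -0.87 to 0.95 for FCER1G, -0.77 to 0.31 for FCGRT, -0.68 to 0.15 for FCER2 and -0.84 to 1.30 for FCAR. For FCGR3A, tested in only 4 of these fits and in neither that leaves out a library numbered 3, it ranged from -0.23 to 0.94. It ranged from -0.023 to 0.51 for LYN, -0.94 to 0.60 for PTPN11, -0.73 to 0.42 for ACTR2, -0.36 to 0.039 for STAT6, -0.56 to 0.37 for ITGAM and -1.22 to 0.25 for IFNGR1.

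Across numbers 461 genes were called, against 956 with RLE factors, 266 with library totals, 1346 with a stricter filter, 1686 with DESeq2, 1288 with limma-voom, 2379 with counts divided by 4, 862 with GC correction and 388 to 4124 with 1 library left out. Those highest in number 3 were 369, against 809 with DESeq2, 635 with limma-voom, 863 with counts divided by 4, 646 with GC correction and 243 to 1118 with 1 library left out. Of 7 tested members 5 were called, 4 with library totals, 7 with DESeq2, and 1 to 8 with 1 library left out, the count of 8 including FCGR3A. That gene entered such fits only through the libraries numbered 3, where it is high, so its call there supports nothing. The estimate for SNX27 was 0.040 with limma-voom, 0.18 with GC correction and -0.31 to 0.47 with 1 library left out; CRK ranged from -1.09 to 0.14 and EEA1 from -0.47 to 0.26. The cause of these shifts was not tested.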
